A study of Homo sapiens with 32 samples.

Results

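The combined effect of low oxygen and mTOR inhibition on mRNA levels in MCF10A cells was measured by comparing total mRNA of cells held in hypoxia with PP242 (HPP) with total mRNA of cells held in normoxia (N). The comparison rested on 2 HPP and 2 N libraries, 4 of the 32 libraries of the series, chosen by the cell line, fraction and treatment that the labels give and not by any measured value. Of the 60554 genes listed, the 19815 annotated as protein-coding entered the analysis and 13124 were abundant enough to test. MCF10A is a non-tumourigenic line of human breast epithelial cells, grown here in medium with serum, EGF, hydrocortisone, cholera toxin and insulin. The N group received no PP242, and by the methods control cells received the solvent, DMSO. The HPP group was kept at 0.5% O2 for 24 h and received 2.5 µM PP242 for 3 h. A pair of single-treatment groups of 2 libraries each, hypoxia alone (H) and PP242 in normoxia (NPP), and polysome-bound mRNA of the same treatments were also sequenced, as was the breast cancer line MDA-MB-231. The labels call the replicates biological and do not say what set them apart, so the p-values measure the spread between these libraries, which may be technical. Total and polysomal libraries of a group and replicate carry the same sample number in the labels, so the 16 MCF10A libraries may stem from 8 cultures, and the fit took them as separate.

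Cells sense oxygen through prolyl hydroxylases (the EGLN proteins), which mark the alpha subunits of hypoxia-inducible factor (HIF) for destruction. When oxygen falls HIF is stabilised, binds short sites around an RCGTG core in DNA and raises genes for glucose uptake, glycolysis, pH control and blood vessel growth. The kinase mTOR works in 2 complexes that couple nutrients and growth factors to protein synthesis, ribosome production and cell growth, and that restrain autophagy and the FOXO transcription factors. PP242 is a small molecule that blocks the ATP site of mTOR and so inhibits both complexes.

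The libraries were checked against markers of breast epithelium and of other cell types, on CPM, the counts of a gene scaled to a common total of protein-coding counts, without further scaling. Over the 4 libraries the basal keratins were abundant, with KRT5 at 1314 to 2110 CPM and KRT14 at 506 to 3264 CPM, as were KRT17 at 53.5 to 854 CPM, the simple-epithelial keratins KRT8 at 113 to 179 CPM and KRT18 at 134 to 219 CPM, LAMB3 at 308 to 2032 CPM and ITGB4 at 212 to 1020.0 CPM. CDH3, P-cadherin, was lower, at 4.1 to 9.24 CPM. The other 3 of the 11 basal and epithelial markers were near 0: CDH1, the gene of E-cadherin, reached at most 0.116 CPM, TP63 0.0950 CPM and EPCAM 0.349 CPM, as did KRT19 of the luminal list, at 0.305 CPM. The basal and simple-epithelial keratins thus went with the label and these 4 genes did not, and the libraries are called MCF10A by their label. CPM is not corrected for gene length, so these levels rank genes only roughly. Of 8 fibroblast markers 4 stayed under 1 CPM in every one of the 4 libraries, with DCN the most abundant at 70.8 to 115 CPM and COL3A1 and LUM at no more than 1 read. Of 8 leukocyte and endothelial markers 2, CD3E and CDH5, had no read, and CD68, a lysosomal protein that many cell types make, was the most abundant at 39.1 to 115 CPM. Of 8 luminal hormone-sensing markers 6 stayed under 1 CPM, 2 of them, PGR and TFF1, with no read, and XBP1, which many cell types make, was the most abundant at 31.7 to 104.4 CPM and made up nearly all of the list's sum. The summed level of the basal and epithelial list was 3797 and 2727 CPM in N and 7839 and 9021 CPM in HPP, that of the fibroblast list 125 and 89.3 CPM in N and 122 and 142 CPM in HPP, that of the leukocyte and endothelial list 43.8 and 48.5 CPM in N and 97.9 and 123 CPM in HPP, and that of the luminal list 113 and 82.5 CPM in N and 43.1 and 36.9 CPM in HPP. The part of these markers in the results below was not tested.

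The 4 libraries held 32371358 to 43854886 counts each. HPP replicate 2 stood apart from HPP replicate 1 in a way that followed transcript length. When the tested genes were cut into 10 bins of about equal size by the length of their transcript, the median gene of the shortest bin was 0.54 higher on the log2 scale in HPP replicate 2 than in HPP replicate 1, and that of the longest bin was 0.96 lower, whereas the N replicates differed by at most 0.13 in any bin. The standard deviation of the log2 difference between replicates was 0.886 for HPP and 0.396 for N, with 0.575 for H and 1.19, the largest, for NPP. The 50 most abundant genes took 31.9% of the counts in HPP replicate 2 against 24.6% in HPP replicate 1. Replicate 2 of H and of NPP leaned the same way, with medians of 0.40 and 1.04 in the shortest bin and -0.58 and -1.26 in the longest. The part of this in the results was not tested beyond the settings given here and under "How the results depend on the processing". Counts of calls are given with and without HPP replicate 2 below. An alternative fit that removed a smooth trend in length from each library called 3491 genes.

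**Figure D1:**
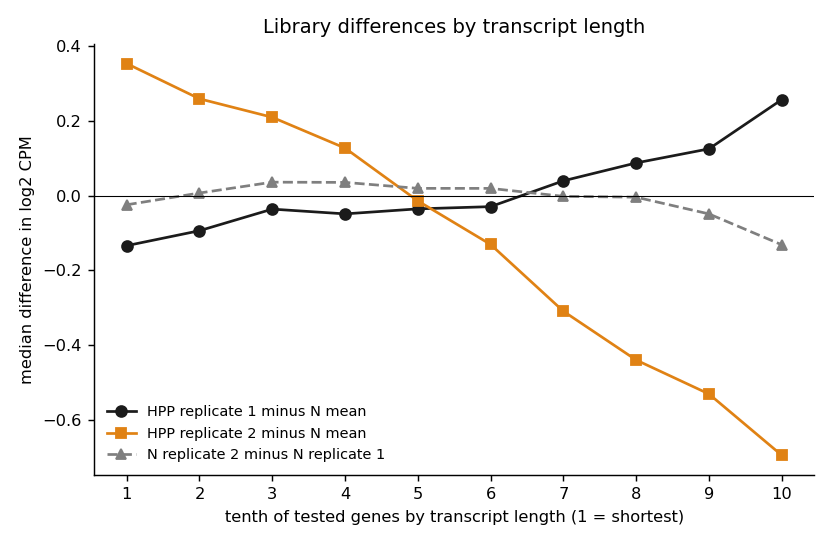
Median difference in log2 CPM (vertical axis) in each of 10 bins of the tested genes by transcript length (horizontal axis, 1 the shortest), for each HPP library against the mean of the N libraries and for N replicate 2 against N replicate 1. HPP replicate 2 ran from 0.35 in the shortest bin to -0.70 in the longest, and HPP replicate 1 from -0.13 to 0.26.

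HPP changed the level of 1956 of the 13124 genes tested (14.9%), of which 975 (7.43%) were higher and 981 (7.47%) were lower than in N (edgeR quasi-likelihood test, Benjamini-Hochberg adjusted p under 0.05). The HPP and N libraries did not overlap in any of the 1956 genes, but groups that did not overlap were common among all genes tested, with HPP higher in 29% and lower in 32.3%. Since this held in every called gene, a lack of overlap stated below for a called gene adds nothing to its call. The median log2 fold change (log2FC) was 1.78 among the genes called higher and -1.38 among those called lower, against -0.01 over all genes. Without HPP replicate 2 the count was 681, without HPP replicate 1 it was 1280, and without N replicate 1 or N replicate 2 it was 690 and 572, and every one of the 1956 genes kept its direction in each of these 4 fits. The groups did not overlap in these genes, so leaving out 1 library could not turn a direction. A fit of the 8 total mRNA libraries alone, without their polysomal counterparts, called 988 genes. A fit that paired same-numbered replicates, a pairing that the labels do not establish, called 3484. When libraries were scaled by their totals alone, without the TMM factors, the median of all genes moved to -0.26 and the split of calls to 34.8% higher and 65.2% lower, against 49.8% and 50.2%. Total mRNA per cell was not measured, so a rise or fall is relative to the other genes of the library, and fewer cells of a type could not be told apart from less RNA per cell. A gene list is read against the 7.43% of all genes called higher and the 7.47% called lower. From here on CPM values are scaled by the TMM factors, each log2FC is given with its standard error (SE), and "edgeR adjusted p" is the Benjamini-Hochberg adjusted p of the quasi-likelihood test.

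**Figure D2:**
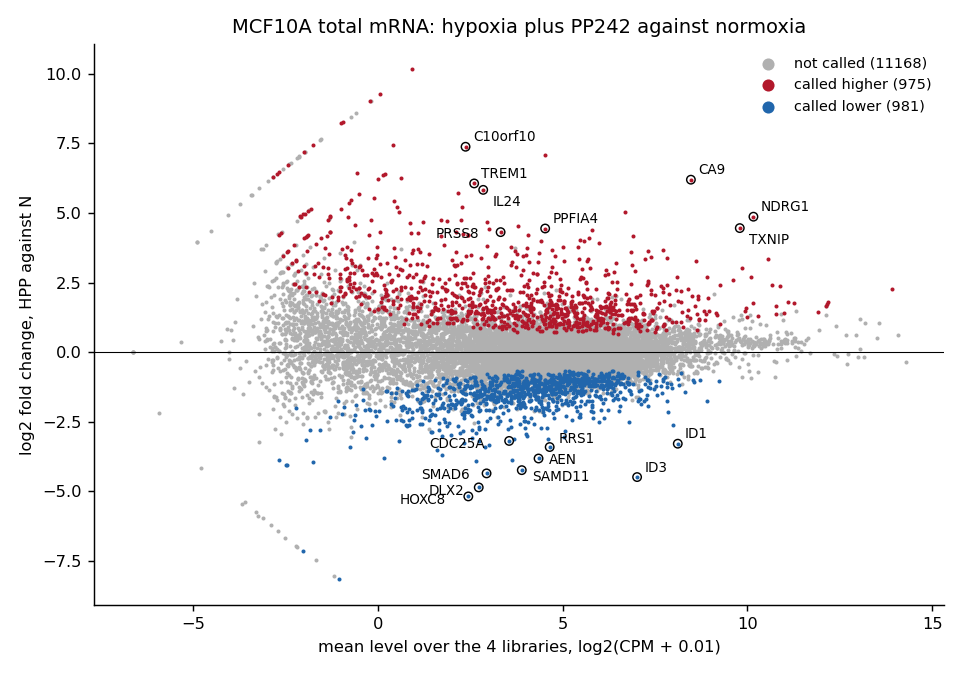
Log2 fold change of HPP against N (vertical axis) against the mean level over the 4 libraries, as log2 of CPM plus 0.01 (horizontal axis), for each tested gene, with the 975 genes called higher in red and the 981 called lower in blue. Among the circled genes CA9 (6.20), NDRG1 (4.87) and ID3 (-4.49) lie far from the centre line. The diagonal edges at the left are genes with no read in 1 group, whose fold change has no fixed size.

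The 14 largest increases among genes with a mean of at least 5 CPM included CA9, TREM1, IL24 and 3 histone genes. Both sets of 14 were chosen by fitted log2FC among called genes whose HPP and N libraries did not overlap, so the lack of overlap was fixed by the choice. C10orf10, also named DEPP1 and known as a target of FOXO factors, stood at 0.0522 and 0.0632 CPM in N and 8.25 and 12.3 CPM in HPP (edgeR adjusted p = 7.28e-05). Its N values rest on 2 and 3 counts, so its fold has no firm size: the ratio of HPP to N was 174, with a 95% interval of 74.3 to 539 (exact conditional binomial, counting error only). CA9, the membrane carbonic anhydrase IX that helps cells export acid, stood at 10.4 and 8.64 CPM in N and 569 and 829 CPM in HPP, a 73.4-fold rise in the mean (log2FC 6.20 ± 0.49 SE, edgeR adjusted p = 7.28e-05). Both genes were low in both N libraries and high in both HPP libraries. CA9 (ENSG00000107159.12 in the deposited table) spans chr9:35673928-35681159 on the plus strand of GRCh38. TREM1, a receptor that amplifies inflammatory signals in myeloid cells, rose from 0.183 and 0.169 CPM to 8.31 and 15.6 CPM (log2FC 6.06 ± 0.53 SE, edgeR adjusted p = 9.26e-05). NDRG1, a stress-responsive gene of the NDRG family, rose 29.2-fold, from 69.7 and 82 CPM to 2009.9 and 2419.8 CPM (log2FC 4.87 ± 0.40 SE, edgeR adjusted p = 7.28e-05). TXNIP, which binds thioredoxin and limits glucose uptake, rose 22-fold, from 77.2 and 77.1 CPM to 1536 and 1856 CPM (log2FC 4.46 ± 0.42 SE, edgeR adjusted p = 1.32e-04). In NDRG1 and TXNIP the replicates of a group lay close together beside the distance between groups. IL24, a cytokine of the IL-10 family, was less even, at 0.235 and 0.253 CPM in N and 4.23 and 24 CPM in HPP (log2FC 5.83 ± 1.18 SE, edgeR adjusted p = 0.00708), and it lost its call without HPP replicate 2 (adjusted p = 0.0503) and without either N library (adjusted p = 0.0762 and 0.0849). PRSS8, the membrane protease prostasin, rose from 1.02 and 0.885 CPM to 19.4 and 18.5 CPM. The other members of the 14 were SPAG4, PPFIA4, JAM2 and TMEM45A, with log2FC between 4.39 and 4.54, and 3 histone genes described below.

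The 14 largest decreases were led by developmental regulators. HOXC8, a homeobox gene of the HOXC cluster, fell 36.3-fold, from 11.6 and 9.53 CPM in N to 0.371 and 0.201 CPM in HPP (log2FC -5.18 ± 0.52 SE, edgeR adjusted p = 1.68e-04). DLX2, a homeobox gene of the distal-less family, fell 29-fold, from 11.2 and 14.3 CPM to 0.340 and 0.537 CPM (log2FC -4.86 ± 0.39 SE, edgeR adjusted p = 7.28e-05). ID3, an inhibitor of basic helix-loop-helix factors, fell 22.4-fold, from 214 and 280.4 CPM to 9.61 and 12.4 CPM (log2FC -4.49 ± 0.42 SE, edgeR adjusted p = 1.14e-04). In all 3 genes each HPP library was far below both N libraries. On GRCh38 HOXC8 spans chr12:54008985-54012769 on the plus strand and ID3 chr1:23557926-23559501 on the minus strand. SMAD6, an inhibitor of BMP signalling, fell 20.5-fold, from 13.3 and 15.9 CPM to 0.649 and 0.772 CPM (log2FC -4.36 ± 0.28 SE, edgeR adjusted p = 3.22e-05), and AEN, a nuclease induced by p53, fell 14.1-fold, from 33.8 and 42 CPM to 2.38 and 2.99 CPM (log2FC -3.82 ± 0.25 SE, edgeR adjusted p = 3.22e-05). AEN is not a member of the list of p53 targets given further below. The rest were ID1, the Wnt ligand WNT7B, the ribosome assembly factor RRS1, the cell cycle phosphatase CDC25A, the mitochondrial methionyl-tRNA synthetase MARS2, and SAMD11, AP5B1, MFAP3L and AUNIP, with log2FC between -4.24 and -3.19.

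**Figure D3:**
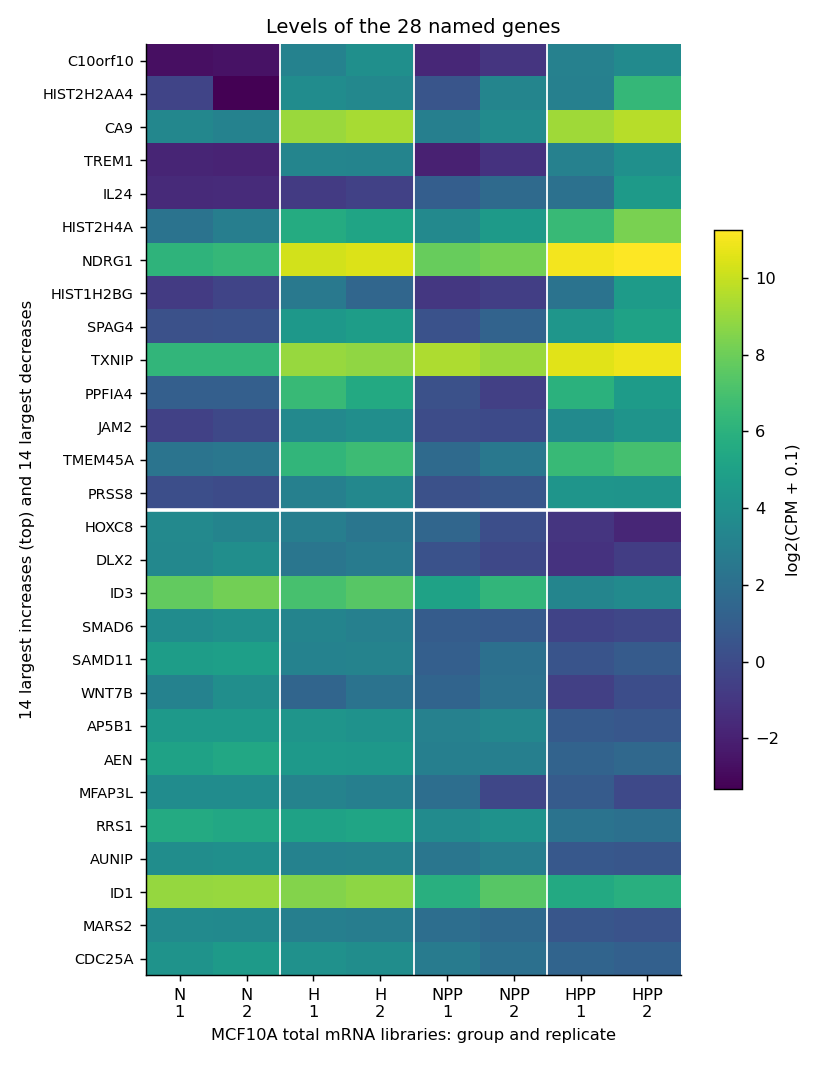
Level of the 14 largest increases (upper block) and 14 largest decreases (lower block) in the 8 MCF10A total mRNA libraries, as log2 of CPM plus 0.1, by group and replicate. CA9 was high in H and HPP and low in N and NPP, ID3 was lowest in HPP, and HIST2H2AA4 was uneven between the HPP replicates at 7.91 and 82.3 CPM.

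Known targets of HIF rose as a group. Of 35 tested members of a list of hypoxia targets, 28 rose and 0 fell, with a median log2FC of 2.31 against -0.01 over all genes. Without HPP replicate 2 the count that rose was 26, and over the 4 fits that each left out 1 library it was 21 to 26. P4HA1, a subunit of the prolyl hydroxylase that stabilises collagen, rose 5.9-fold, from 40.4 and 50.7 CPM in N to 261 and 277 CPM in HPP (log2FC 2.56 ± 0.22 SE, edgeR adjusted p = 8.39e-05). TMEM45A, a membrane protein of little known function, rose from 4.78 and 5.29 CPM to 89.9 and 122 CPM (log2FC 4.39 ± 0.33 SE, edgeR adjusted p = 7.28e-05), and ANGPTL4, a secreted inhibitor of lipoprotein lipase, from 166 and 235 CPM to 1814 and 1494 CPM (log2FC 3.04 ± 0.40 SE, edgeR adjusted p = 7.40e-04). In these genes the HPP libraries lay above the N libraries without overlap. BNIP3, a mitophagy receptor, and ADM, the peptide adrenomedullin, rose as well, with log2FC of 2.69 and 1.73. The 7 members that did not pass were VEGFA, DDIT4, HILPDA, AK4, KDM4B, JMJD6 and PFKFB3. VEGFA, the main angiogenic growth factor, stood at 35.7 and 30.9 CPM in N, 229 and 103.3 CPM in H, 19.7 and 6.41 CPM in NPP and 108.8 and 43.4 CPM in HPP (log2FC 1.19 ± 0.55 SE, edgeR adjusted p = 0.17). DDIT4, a stress-induced inhibitor of mTORC1, had a log2FC of 1.15 (edgeR adjusted p = 0.0838).

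Promoter sequence was examined in the RefSeq windows from 250 bases before to 50 bases after each gene's start (GRCh38.p14), which were found for 10668 of the 13124 tested genes (81.29%). The HIF core was searched as ACGTG or GCGTG on both strands, counting overlapping matches. It was present in 23 of the 26 hypoxia targets with a window (88.5%), against 62.7% of the windows of all tested genes, 48.4% of all 27305 windows, 54.6% of those of genes called higher and 69.7% of those of genes called lower. The share was higher still in the ribosome biogenesis genes, of which 21 of 38 fell, at 29 of 31 windows (93.5%), and that of the glycolysis genes was 15 of 24 (62.5%). Among the windows found for the 14 largest increases it was 3 of 9 (33.3%), and for the 14 largest decreases 8 of 11 (72.7%). The windows of EGLN3, TMEM45A and LAMB3, which rose, hold 0 matches, and those of SMAD6 and SAMD11, which fell, hold 1 each. The windows of CA9 (chr9:35673678-35673977, plus strand), P4HA1 (chr10:73096817-73097116, minus strand) and ENO2 (chr12:6914330-6914629, plus strand) are printed because each of these genes rose in both HPP libraries and its window holds a single match. Capitals mark the match, which reads CACGT or CACGC where it lies on the other strand. Counting the start itself as 1, with the base before it as -1, its first printed base is at position -18 from the start in CA9, -86 in P4HA1 and -118 in ENO2.
CA9: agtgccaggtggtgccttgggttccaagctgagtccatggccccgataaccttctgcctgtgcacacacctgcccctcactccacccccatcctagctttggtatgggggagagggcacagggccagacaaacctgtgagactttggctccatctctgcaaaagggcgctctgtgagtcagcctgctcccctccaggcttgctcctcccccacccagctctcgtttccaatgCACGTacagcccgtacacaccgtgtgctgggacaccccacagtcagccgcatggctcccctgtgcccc
P4HA1: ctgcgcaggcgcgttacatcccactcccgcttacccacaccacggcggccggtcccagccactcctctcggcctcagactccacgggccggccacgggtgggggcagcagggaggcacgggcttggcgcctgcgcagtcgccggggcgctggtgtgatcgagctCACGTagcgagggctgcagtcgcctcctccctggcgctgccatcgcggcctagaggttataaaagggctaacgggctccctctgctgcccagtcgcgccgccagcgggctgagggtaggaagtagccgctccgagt
ENO2: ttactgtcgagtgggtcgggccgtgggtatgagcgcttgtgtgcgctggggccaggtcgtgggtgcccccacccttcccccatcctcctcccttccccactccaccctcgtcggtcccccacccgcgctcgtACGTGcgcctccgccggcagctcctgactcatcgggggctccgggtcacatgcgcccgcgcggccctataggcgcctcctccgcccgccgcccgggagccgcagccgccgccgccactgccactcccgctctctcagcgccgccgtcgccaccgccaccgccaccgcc
A match is a run of letters in the window and was not tested for binding in these cells.

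Genes of glucose uptake and glycolysis rose. Of 26 tested genes of glucose uptake, glycolysis and glycogen metabolism 18 rose and 0 fell, with a median log2FC of 1.46. Without HPP replicate 2 the count was 8, and over the 4 leave-out fits 7 to 18, lowest without either N library. SLC2A3, the high-affinity glucose transporter GLUT3, rose 11.9-fold, from 3.24 and 3.1 CPM in N to 43.1 and 32.5 CPM in HPP (log2FC 3.58 ± 0.29 SE, edgeR adjusted p = 7.28e-05). SLC2A1, the transporter GLUT1, rose from 56.8 and 61.6 CPM to 277 and 277 CPM (log2FC 2.23 ± 0.30 SE, edgeR adjusted p = 7.84e-04). PGK1, phosphoglycerate kinase, rose from 541 and 491 CPM to 2405 and 3036 CPM (log2FC 2.40 ± 0.29 SE, edgeR adjusted p = 4.53e-04), ENO2, an enolase, from 18.9 and 18.9 CPM to 128 and 134 CPM (log2FC 2.80 ± 0.23 SE, edgeR adjusted p = 7.28e-05), and GBE1, the glycogen branching enzyme, from 86.5 and 68.3 CPM to 341 and 350.2 CPM (log2FC 2.16 ± 0.28 SE, edgeR adjusted p = 7.02e-04). Each of these 5 genes had both HPP libraries above both N libraries. HK2, the hexokinase of the first step, stood at 13.4 and 13 CPM in N and 49.4 and 22.3 CPM in HPP and did not pass (edgeR adjusted p = 0.0734), nor did PDK1, a kinase that keeps pyruvate out of mitochondria (log2FC 0.93, edgeR adjusted p = 0.16). Among the 9 HIF subunits and oxygen sensors 1 passed, EGLN3, at 0.183 and 0.358 CPM in N and 3.74 and 3.36 CPM in HPP (log2FC 3.68 ± 0.48 SE, edgeR adjusted p = 6.78e-04), and HIF1A had a log2FC of -0.29 (edgeR adjusted p = 0.74).

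Replication-dependent histone genes, which package newly made DNA and whose mRNAs mostly end in a stem-loop in place of a poly(A) tail, rose in these poly(A)-selected libraries. Of 41 tested histone genes 22 rose and 0 fell, with a median log2FC of 2.31, while 30 of the 71 listed were too low to test. HIST1H2AC stood at 11.8 and 12.9 CPM in N, 104.3 and 98 CPM in H, 14.6 and 26.4 CPM in NPP and 98.5 and 352 CPM in HPP (log2FC 4.18 ± 0.63 SE, edgeR adjusted p = 0.00142). HIST2H4A stood at 4.57 and 7.54 CPM in N and 88.2 and 315 CPM in HPP (log2FC 5.05 ± 0.74 SE, edgeR adjusted p = 0.00128), and HIST1H2BD at 4.6 and 4.07 CPM and 33.6 and 86.7 CPM (log2FC 3.79 ± 0.59 SE, edgeR adjusted p = 0.00162). HPP replicate 2 was the higher HPP library in each of these genes, by more than the whole range of the N libraries. Without it 9 histone genes rose, and over the 4 leave-out fits 7 to 23, lowest without N replicate 2. HIST1H2BG and HIST2H2AA4, among the 14 largest increases, lost their calls without HPP replicate 2 (adjusted p = 0.0709 and 0.107). HIST1H2BG also lost its call without N replicate 1 and without N replicate 2 (adjusted p = 0.0919 and 0.0797). HIST2H2AA4 also lost its call without N replicate 2 (adjusted p = 0.129), in a fit of the 4 libraries alone (0.0563) and in one of the 8 total mRNA libraries (0.0759). Many histone genes are near-identical copies, HIST2H4A and HIST2H2AA4 among them, so reads may be shared between them and the value of a single gene is uncertain.

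DNA replication genes fell in part, and genes of mitosis did not pass the test in either direction. Of 40 DNA replication genes 18 fell and 0 rose (median log2FC -0.92), against 0 of 26 mitosis genes called by edgeR in either direction (median -0.32). At an unadjusted p under 0.05, which 29.1% of all genes passed, 1 mitosis gene was higher and 2 were lower, and DESeq2 called 1 higher. MCM10, a factor that helps activate the replicative helicase, fell 8.16-fold, from 26.2 and 31.6 CPM in N to 3.55 and 3.52 CPM in HPP (log2FC -3.03 ± 0.33 SE, edgeR adjusted p = 2.78e-04). CDC6, which loads the helicase at origins, fell from 83.9 and 91.9 CPM to 19.3 and 21.6 CPM (log2FC -2.10 ± 0.21 SE, edgeR adjusted p = 1.55e-04), and FEN1, the flap endonuclease of Okazaki fragments, from 104.2 and 106.9 CPM to 23.6 and 26.2 CPM (log2FC -2.08 ± 0.25 SE, edgeR adjusted p = 4.73e-04). The groups did not overlap in these genes. RRM2, a subunit of ribonucleotide reductase, stood at 295 and 294 CPM in N and 197 and 204 CPM in HPP and did not pass (edgeR adjusted p = 0.0776). The mitotic kinase gene CDK1 had a log2FC of -0.40 (edgeR adjusted p = 0.37) and the mitotic cyclin gene CCNB1 -0.19 (edgeR adjusted p = 0.74). Of 19 G1 cyclins and CDK inhibitors 6 fell and 1 rose, with 3 to 5 lower and 1 higher over the 4 leave-out fits. CDC25A, the phosphatase that activates CDK2, fell 9.12-fold, from 17.5 and 24.7 CPM to 2.53 and 2.08 CPM (log2FC -3.19 ± 0.34 SE, edgeR adjusted p = 2.45e-04), CCNE1, cyclin E1, fell from 20.1 and 22.1 CPM to 4.7 and 5.88 CPM (log2FC -2.0 ± 0.28 SE, edgeR adjusted p = 0.00101), and CCND1, cyclin D1, from 202 and 234 CPM to 76.8 and 41.7 CPM (log2FC -1.88 ± 0.43 SE, edgeR adjusted p = 0.0127). The gene that rose (5.26%, below the 7.43% of all genes) was CDKN1C, the CDK inhibitor p57, from 6.89 and 5.48 CPM to 35.7 and 54.5 CPM (log2FC 2.87 ± 0.38 SE, edgeR adjusted p = 7.79e-04). The count of replication genes that fell was 8 without HPP replicate 2 and 8 to 9 over the 4 leave-out fits.

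Ribosome assembly genes fell, while no ribosomal protein gene passed the test in total mRNA. Of 38 genes of ribosome biogenesis and RNA polymerase I 21 fell and 0 rose, with a median log2FC of -1.03, and over the 4 leave-out fits 10 to 12 fell, 10 of them without HPP replicate 2. RRS1, needed for the large subunit, fell 10.6-fold, from 48.5 and 43 CPM in N to 4.51 and 4.1 CPM in HPP (log2FC -3.41 ± 0.29 SE, edgeR adjusted p = 8.62e-05). LTV1, a factor of the small subunit, fell 7.04-fold, from 60.3 and 55.7 CPM to 8.96 and 7.52 CPM (log2FC -2.81 ± 0.26 SE, edgeR adjusted p = 1.13e-04), and NOP2, an rRNA methyltransferase, fell 4.65-fold, from 76.8 and 70 CPM to 16 and 15.5 CPM (log2FC -2.22 ± 0.24 SE, edgeR adjusted p = 2.63e-04). Within each group the replicates of these 3 genes differed far less than the groups did. NOP56, a core protein of box C/D particles, and DKC1, the pseudouridine synthase of box H/ACA particles, fell by less, with log2FC of -1.24 and -1.55. Of 82 cytosolic ribosomal protein genes 0 were called by edgeR in either direction, 0 had an unadjusted p under 0.05 and DESeq2 called 0, with log2FC between -0.09 and 0.71 and a median of 0.35. That median rested on the HPP libraries, at -0.05 without HPP replicate 2 and 0.76 without HPP replicate 1. The summed level of these genes was 94150.0 and 97560.0 CPM in N, 91490.0 CPM in HPP replicate 1 and 155800.0 CPM in HPP replicate 2. EIF4E, the cap-binding protein through which mTORC1 controls initiation, fell 4.25-fold, from 125 and 119 CPM to 31.9 and 25.5 CPM (log2FC -2.09 ± 0.25 SE, edgeR adjusted p = 4.73e-04). It was the 1 call (5.26%, below the 7.47% of all genes) among 19 translation effectors tested. Of 12 cytosolic tRNA synthetases 4 fell, MARS, YARS, IARS and WARS (log2FC -1.34 to -0.82), and of 77 mitochondrial ribosomal proteins 4 fell (5.19%, against 7.47% of all genes) and 1 rose. Over the 4 leave-out fits 0 to 2 synthetases and 0 to 1 of these ribosomal proteins fell. Of 79 nuclear-encoded and 13 mitochondrially encoded respiratory chain genes 0 were called by edgeR and 0 by DESeq2. Of the former 2 were lower at an unadjusted p under 0.05 in edgeR. The medians were 0.05 and -0.19. With 1 library left out they ran from -0.27 to 0.39 and from -0.46 to 0.15.

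The palindrome CACGTG, the E-box that MYC and related factors bind and that also contains the ACGTG core, was in the RefSeq windows of 11 of the 31 ribosome biogenesis genes with a window (35.5%), against 10.1% of the windows of tested genes, 7.43% of all windows, 14% of those of genes called lower and 9.03% of those of genes called higher. It was also in 7 of the 22 windows of lysosome and autophagy genes (31.8%) and 7 of the 26 of hypoxia targets (26.9%). The windows of LTV1 (chr6:143843088-143843387, plus strand) and NOP2 (chr12:6568242-6568541, minus strand), both of GRCh38.p14, are printed below. They were chosen because both genes fell in both HPP libraries and both windows hold the palindrome. The windows of NOP56 and DKC1, which also fell, do not hold it, nor does that of POLR1B. Capitals mark CACGTG, whose first base is at position 29 from the start in LTV1 and 36 in NOP2.
LTV1: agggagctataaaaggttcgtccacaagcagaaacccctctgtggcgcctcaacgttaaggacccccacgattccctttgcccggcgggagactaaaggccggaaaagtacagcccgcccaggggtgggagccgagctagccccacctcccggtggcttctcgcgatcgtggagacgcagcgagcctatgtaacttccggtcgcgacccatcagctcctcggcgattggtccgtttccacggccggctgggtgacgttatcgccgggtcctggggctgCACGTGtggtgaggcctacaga
NOP2: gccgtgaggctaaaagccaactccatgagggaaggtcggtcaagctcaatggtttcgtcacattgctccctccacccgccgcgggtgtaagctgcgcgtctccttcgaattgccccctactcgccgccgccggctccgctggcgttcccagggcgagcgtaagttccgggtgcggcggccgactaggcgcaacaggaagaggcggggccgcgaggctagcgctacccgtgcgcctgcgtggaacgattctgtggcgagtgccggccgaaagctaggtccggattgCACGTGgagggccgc
Of the 10 tested genes of the MYC-MAX-MXD network 2 rose, MYC from 198 and 180.2 CPM in N to 353 and 446 CPM in HPP (log2FC 1.08 ± 0.28 SE, edgeR adjusted p = 0.0256) and the repressor MNT from 13.6 and 10.8 CPM to 42.6 and 32.5 CPM (log2FC 1.62 ± 0.44 SE, edgeR adjusted p = 0.0284). MYC stood higher in both HPP libraries than in both N libraries, but 1 member of the network passed without HPP replicate 1 and 0 without any other of the 4 libraries. Whether any factor bound these windows was not tested.

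A few genes around mTORC1 and in the stress pathways that respond to it passed the test. Of 21 genes of the mTOR complexes and their regulators 3 rose (14.3%) and 1 fell (4.76%, below the share of all genes). Those that rose were FLCN, folliculin, which acts on the Rag GTPases, from 18.1 and 14.6 CPM to 85.6 and 52.3 CPM (log2FC 2.08 ± 0.37 SE, edgeR adjusted p = 0.0035), RRAGC, a Rag GTPase, from 34.8 and 35.6 CPM to 73.8 and 80.8 CPM (log2FC 1.13 ± 0.21 SE, edgeR adjusted p = 0.00469), and GATSL3 (log2FC 1.37). MAPKAP1, the mTORC2 subunit SIN1, fell (log2FC -0.87, edgeR adjusted p = 0.0336), and MTOR had a log2FC of -0.86 (edgeR adjusted p = 0.15). The call of MAPKAP1 was lost whichever of the 4 libraries was left out, and 0 to 3 members rose in those fits, 0 of them without N replicate 2. Of 26 FOXO factors, their targets and receptor feedback genes 5 rose (19.2%) and 0 fell: TXNIP, the cyclin-like CCNG2, the insulin receptor substrate IRS2, the repressor BCL6 and the stress gene GADD45A, with log2FC from 1.78 to 4.46, and 2 to 6 rose over the 4 leave-out fits, 2 without either N library. Of 30 lysosome and autophagy genes 5 rose (16.7%). ATG16L1 fell (3.33%, below the share of all genes, log2FC -1.09), a call lost without N replicate 1. GABARAPL1 rose the most of those named, from 6.71 and 6.74 CPM to 24 and 41.6 CPM (log2FC 2.28 ± 0.31 SE, edgeR adjusted p = 9.85e-04). The protease CTSB had a log2FC of 1.31 and the autophagosome protein MAP1LC3B of 1.12. Without HPP replicate 1 there were 4 such genes that rose, and without any other of the 4 libraries 1. Of 22 genes of the ATF4 pathway, which responds to amino acid shortage, 6 rose (27.3%) and 2 fell (9.09%), with 3 to 6 higher and 2 lower over the 4 leave-out fits. PPP1R15A, the phosphatase subunit that restores translation after stress, rose 10.6-fold, from 29.6 and 28.5 CPM to 250.3 and 366 CPM (log2FC 3.41 ± 0.33 SE, edgeR adjusted p = 1.47e-04), whereas PSAT1 of serine synthesis (log2FC -1.59) and the factor CEBPG (log2FC -2.18) fell, and ATF4 and ASNS did not pass (log2FC 0.63 and -0.63). Of 20 endoplasmic reticulum chaperones and unfolded protein response genes 1 was called (5%, below the share of all genes), XBP1, which fell (log2FC -1.14, edgeR adjusted p = 0.0128), a call made again without N replicate 2 and lost without any other of the 4 libraries.

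ID genes and some developmental regulators fell, while most members of the Wnt, TGF-beta, Notch and Hippo lists did not pass. Of 18 ID and BMP signalling genes 7 fell and 1 rose, with a median log2FC of -1.11, and 6 to 7 fell over the 4 leave-out fits. ID1 fell 9.77-fold, from 487 and 518 CPM in N to 45.3 and 57.5 CPM in HPP (log2FC -3.29 ± 0.49 SE, edgeR adjusted p = 0.00133), and ID2 fell 5.96-fold, from 23.8 and 25.1 CPM to 3.4 and 4.8 CPM (log2FC -2.58 ± 0.36 SE, edgeR adjusted p = 0.00101). SMAD7, an inhibitor of TGF-beta and BMP receptors, fell from 19.2 and 16.2 CPM to 5.53 and 4.8 CPM (log2FC -1.78 ± 0.25 SE, edgeR adjusted p = 0.00115). The HPP libraries lay below the N libraries in each. Over the 4 leave-out fits the median of the list ran from -1.89 to -0.96, and its 1 rise was lost without N replicate 1. DLX1, a relative of DLX2, fell, from 8.33 and 9.67 CPM to 1.08 and 0.772 CPM (log2FC -3.27 ± 0.32 SE, edgeR adjusted p = 1.55e-04). Of 20 tested HOX genes 6 fell (30%) and 1 rose (5%), HOXC13 falling from 32.4 and 49.9 CPM to 6.06 and 6.45 CPM (log2FC -2.72 ± 0.33 SE, edgeR adjusted p = 4.73e-04), but 2 fell without HPP replicate 2 and 4 without either N library. The 1 HOX gene that rose lost its call without N replicate 1. Of 25 Wnt genes 5 fell (20%), WNT7B, the target AXIN2, the nuclear factors LEF1 and TCF7 and the receptor FZD1 (log2FC -3.91 to -1.69). FZD7 rose (4%, log2FC 1.34). Over the 4 leave-out fits 3 to 5 Wnt genes fell and 0 rose. Of 19 TGF-beta genes 2 fell (10.5%) and 1 rose (5.26%), near the shares of 7.47% and 7.43% of all genes. PMEPA1, a target and feedback inhibitor of the pathway, fell 5.66-fold, from 174 and 200.1 CPM to 33 and 33 CPM (log2FC -2.50 ± 0.23 SE, edgeR adjusted p = 1.13e-04), the ligand TGFB2 fell (log2FC -2.58), and the latency protein LTBP1 rose (1.76). With 1 library left out 1 TGF-beta gene fell in each fit, and 1 rose without HPP replicate 2. Of 13 Notch genes the effectors HES1 and HEY1 fell (15.4%, log2FC -2.24 and -1.30), and of 22 Hippo and YAP genes ANKRD1, TEAD3 and NF2 fell (13.6%), against 7.47% of all genes, while the classic YAP targets CTGF and CYR61 did not pass (log2FC 0.94 and 0.38). Both Notch calls were lost in each of the 4 leave-out fits, and 1 to 3 Hippo genes fell, 1 without HPP replicate 2 and 1 without N replicate 2.

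Keratin and desmosome genes rose in part, and few integrins did. Of 19 keratins and desmosome genes 10 rose and 0 fell (median log2FC 0.96), but 2 rose without HPP replicate 2, and over the 4 leave-out fits 2 to 8. JUP, plakoglobin, rose 5.3-fold, from 72.3 and 70.3 CPM in N to 340.0 and 416 CPM in HPP (log2FC 2.41 ± 0.34 SE, edgeR adjusted p = 0.00105), and KRT14, a basal keratin, from 752 and 458 CPM to 2314 and 3950.2 CPM (log2FC 2.37 ± 0.46 SE, edgeR adjusted p = 0.00565). LAMB3, a chain of laminin 332, rose 6.43-fold, from 313 and 279 CPM to 1982 and 1819.9 CPM (log2FC 2.68 ± 0.32 SE, edgeR adjusted p = 4.47e-04), and ITGB4, the integrin subunit that binds it in hemidesmosomes, rose 5.3-fold, from 197 and 192 CPM to 995 and 1066 CPM (log2FC 2.41 ± 0.32 SE, edgeR adjusted p = 8.43e-04). These pairs of libraries did not overlap. Of 18 integrins 4 rose (22.2%), ITGB4, ITGA5, ITGAX and ITGB2, and ITGB3 did not pass, at 6.42 and 5.14 CPM in N and 13.7 and 6.78 CPM in HPP (edgeR adjusted p = 0.58). The integrin count was 4 without HPP replicate 1 and 1 without any other of the 4 libraries. GJB2, a connexin of gap junctions, rose 9.52-fold, from 4.2 and 3.48 CPM to 33.7 and 39.5 CPM (log2FC 3.25 ± 0.28 SE, edgeR adjusted p = 8.77e-05). Among 17 epithelial-mesenchymal genes 2 rose (11.8%) and 0 fell: VIM, vimentin, rose from 1933 and 2277 CPM to 4585 and 9369.9 CPM (log2FC 1.73 ± 0.48 SE, edgeR adjusted p = 0.0325) and FN1, fibronectin, from 2483 and 1829.9 CPM to 8617 and 5078 CPM (log2FC 1.67 ± 0.48 SE, edgeR adjusted p = 0.0374), and neither was called without HPP replicate 2 or without either N library, while SNAI1 and SNAI2 did not pass (log2FC -1.40 and -0.61). Of 14 matrix protease and plasminogen genes 3 rose (21.4%) and 1 fell (7.14%, near the 7.47% of all genes). TIMP3, a metalloprotease inhibitor (2.87), PLAT, tissue plasminogen activator (2.26), and the urokinase receptor PLAUR (1.75) rose. ADAMTS15 fell, with no read in either HPP library and 0.940 and 0.948 CPM in N, at least 9.76-fold lower against a floor of 3 counts per library.

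Some signalling feedback and inflammatory genes rose. Of 24 ERK feedback and immediate early genes 9 rose and 0 fell (median log2FC 1.03), with 2 to 8 over the 4 leave-out fits, lowest without either N library. DUSP5, a nuclear ERK phosphatase, rose from 16.7 and 17.5 CPM in N to 60 and 107.1 CPM in HPP (log2FC 2.29 ± 0.32 SE, edgeR adjusted p = 0.00105), SPRY2, a receptor kinase antagonist, from 14.5 and 16.6 CPM to 47.2 and 44.6 CPM (log2FC 1.56 ± 0.26 SE, edgeR adjusted p = 0.00262), and DUSP6 from 8.38 and 8.09 CPM to 20.4 and 24 CPM (log2FC 1.43 ± 0.27 SE, edgeR adjusted p = 0.00531), while EGR1 and SPRY4 did not pass (log2FC 0.30 and 0.02). Of 14 tested cytokines and related genes 6 rose. CXCL8, the neutrophil attractant IL-8, rose from 6.48 and 4.45 CPM to 26.9 and 22.3 CPM (log2FC 2.17 ± 0.33 SE, edgeR adjusted p = 0.00152), IL1A, interleukin-1 alpha, from 0.392 and 0.211 CPM to 2.26 and 5.61 CPM (log2FC 3.71 ± 0.60 SE, edgeR adjusted p = 0.00204), and CSF3, the granulocyte growth factor, from 59.7 and 63.6 CPM to 188 and 165 CPM (log2FC 1.52 ± 0.37 SE, edgeR adjusted p = 0.0187). In each the HPP libraries were the higher pair, but the count that rose was 5 without HPP replicate 1 and 2 without any other of the 4 libraries. Of 22 interferon genes 3 rose (13.6%) and 2 fell (9.09%), the latter near the 7.47% of all genes. IRF9, part of the complex that reads type I interferon, rose 7.22-fold, from 7.78 and 5.84 CPM to 48.8 and 49.5 CPM (log2FC 2.85 ± 0.31 SE, edgeR adjusted p = 2.76e-04), and IRF1 fell (log2FC -1.53), while ISG15 did not pass (-0.35), and over the 4 leave-out fits 1 to 4 interferon genes rose and 0 to 1 fell. Of 17 clock genes 7 rose (41.2%) and 2 fell (11.8%), with the repressor BHLHE40 at 1.62, the nuclear receptor RORA at 4.17 and CIART at 2.35. With 1 library left out 2 to 5 clock genes rose, 2 without N replicate 1, and 0 fell. Of 17 p53 targets TP53I3 rose (1.41) and PLK2 fell (-1.09), 5.88% each way and below the 7.43% and 7.47% of all genes, and MDM2 did not pass (-0.48), with 0 to 2 higher and 0 lower over those fits. Of 13 metal and iron genes 1 passed (7.69%, near the share of all genes): TFRC, the transferrin receptor, fell 5.18-fold, from 118 and 114 CPM to 25.8 and 18.9 CPM (log2FC -2.37 ± 0.63 SE, edgeR adjusted p = 0.0264), and lost its call whichever of the 4 libraries was left out.

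**Figure D4:**
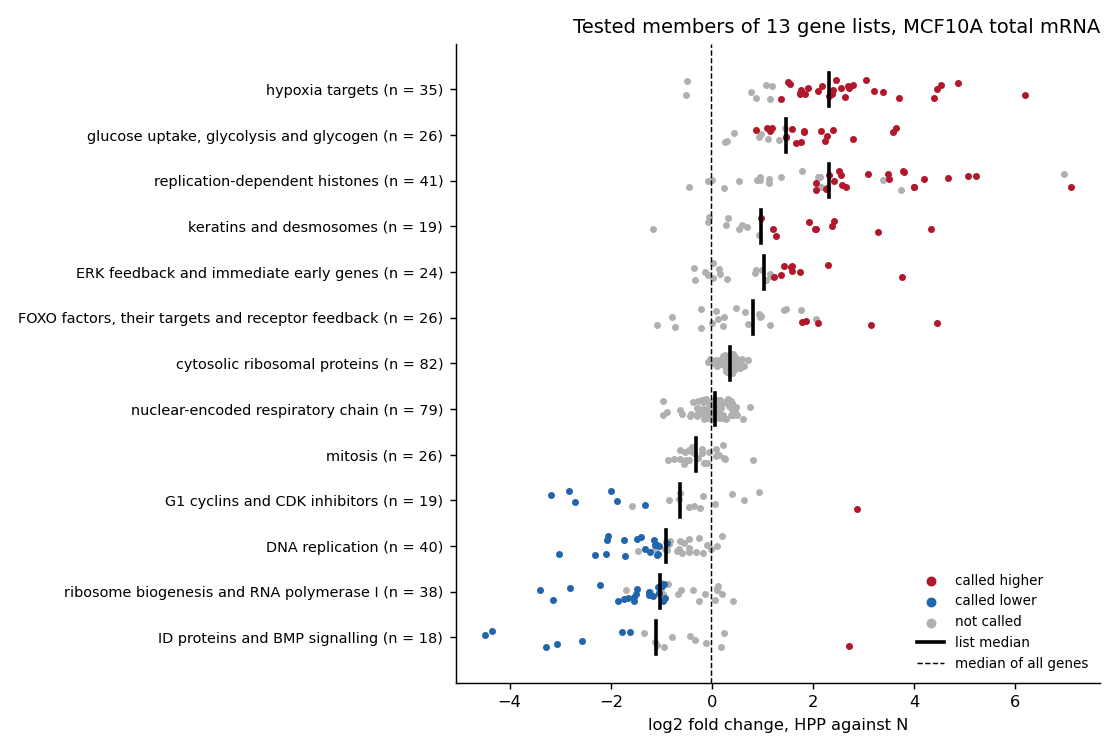
Log2 fold change of HPP against N (horizontal axis) for the tested members of 13 gene lists, 1 point a gene, coloured by call, with the list median as a bar and the median of all genes as a dashed line. The points of hypoxia targets and glycolysis lie mostly to the right, those of DNA replication and ribosome biogenesis mostly to the left, and the 82 ribosomal protein genes in a narrow band around 0.35.

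HPP was then set beside each single treatment, to show what PP242 changed within hypoxia and hypoxia within PP242. HPP differed from H in 491 genes (3.74%), 174 higher (1.33%) and 317 lower (2.42%), and from NPP in 547 genes (4.17%), 322 higher (2.45%) and 225 lower (1.71%) (edgeR adjusted p under 0.05). With same-numbered replicates paired, which the labels do not establish, the counts were 1153 against H and 1226 against NPP. Without that pairing both counts moved widely when 1 library was left out. Against H they ran from 71 without HPP replicate 2 to 136 without HPP replicate 1, with 78 without H replicate 2. Against NPP they ran from 126 without HPP replicate 2 to 1062 without NPP replicate 1, with 190 without HPP replicate 1 and 234 without NPP replicate 2. The single treatments against N gave 202 calls for H (1.54%) and 85 for NPP (0.648%), and all of these comparisons share libraries with each other, so the values below are set side by side. The NPP replicates differed the most of any group, so its 85 calls do not show how much PP242 alone changed. CA9 stood at 522 and 658 CPM in H and 7.72 and 12.8 CPM in NPP, and its HPP level differed from NPP (log2FC 6.09, edgeR adjusted p = 1.61e-04) and not detectably from H (log2FC 0.24, edgeR adjusted p = 0.86). Of the 35 hypoxia targets 28 were higher in HPP than in NPP and 0 passed against H, where 4 were higher and 2 lower at an unadjusted p under 0.05 in edgeR, against 15.8% of all genes. EGLN3, the inducible oxygen sensor, stood at 13.1 and 17.6 CPM in H and 0.0517 and 0 CPM in NPP, and was lower in HPP than in H (log2FC -2.11, edgeR adjusted p = 0.0163). SLC2A3 went the other way, at 8.93 and 7.52 CPM in H and 6.25 and 4.48 CPM in NPP, and was higher in HPP than in H (log2FC 2.20, edgeR adjusted p = 0.00183) and than in NPP (log2FC 2.81, edgeR adjusted p = 4.37e-04).

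ID2, one of the inhibitors of differentiation, stood at 55.3 and 80.5 CPM in H and 3.2 and 4.65 CPM in NPP, and HPP lay below H (log2FC -4.05, edgeR adjusted p = 4.52e-04) with a difference from NPP of 0.07. CXCL8 stood at 1.48 and 1.48 CPM in H and 24.1 and 16.7 CPM in NPP, and HPP lay above H (log2FC 4.06, edgeR adjusted p = 3.86e-04) with a difference from NPP of 0.27. In both genes H lay on the opposite side of N from NPP and HPP, and the H libraries overlapped with none of the others. TXNIP stood at 518 and 460.2 CPM in H and 707 and 536 CPM in NPP, and PPP1R15A at 38.2 and 43.9 CPM and 102.96 and 133 CPM, so both genes were highest in HPP. PPP1R15A passed against H (log2FC 2.91, edgeR adjusted p = 0.00107) and against NPP (log2FC 1.39, edgeR adjusted p = 0.0284), and TXNIP passed against H (edgeR adjusted p = 0.0222) and missed the threshold against NPP (edgeR adjusted p = 0.0522). ID3, at 128 and 175 CPM in H and 34 and 75.7 CPM in NPP, was lowest in HPP and passed against both (edgeR adjusted p = 8.42e-04 and 0.00771). Of the 38 ribosome biogenesis genes 10 were lower in HPP than in H and 6 lower than in NPP, with median log2FC against N of -0.34 in H and -0.54 in NPP. Of the 40 DNA replication genes 3 were lower and 1 higher in HPP than in H, and 12 were lower than in NPP. The test of whether HPP departed from the sum of the single treatments on the log2 scale called 0 genes with edgeR, with 230 at an unadjusted p under 0.05 (1.75% of 13124), and 6 with DESeq2. That 1.75% is less than the share of 0.05 that would pass if no gene departed. The test was thus a cautious one, and its 0 calls do not show that the treatments add up.

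**Figure D5:**
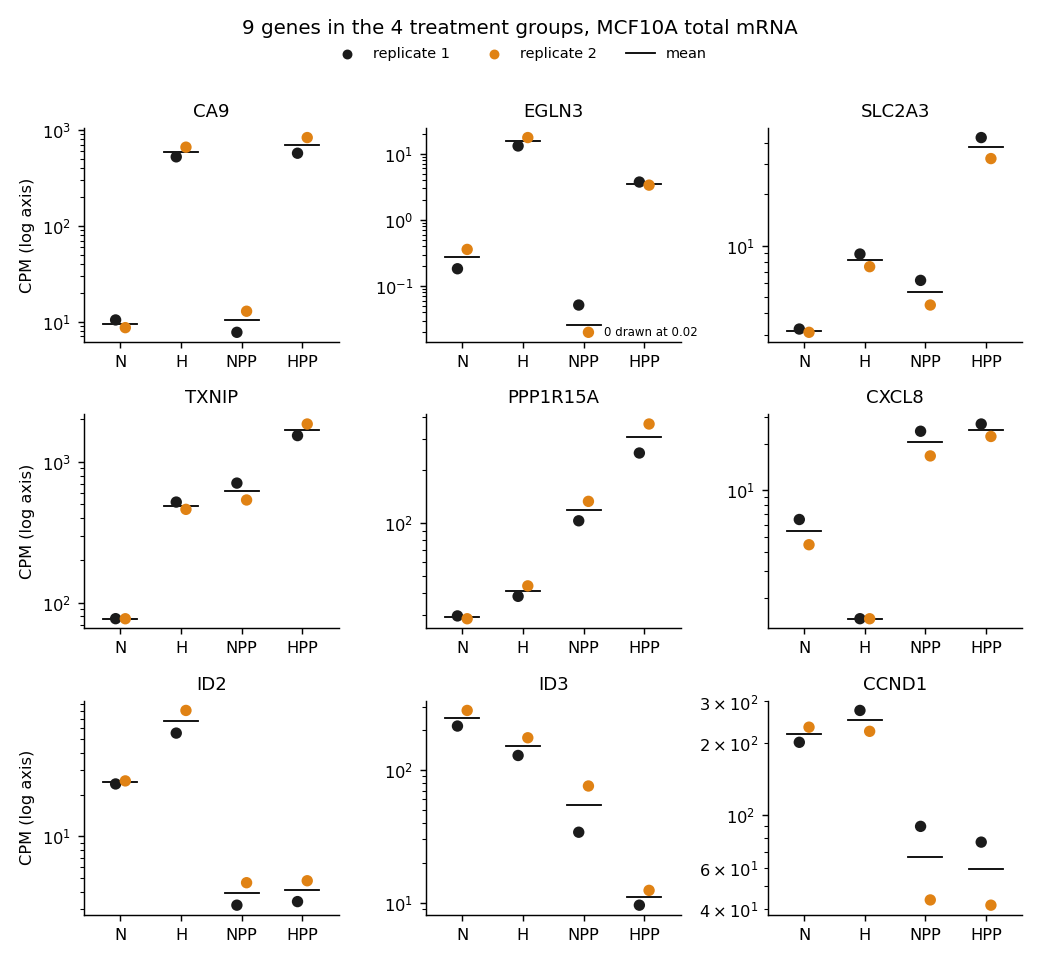
Level in CPM (vertical log axis) of 9 genes in the 4 treatment groups of MCF10A total mRNA, 1 point a library with replicates 1 and 2 coloured apart, and the group mean as a bar. CA9 is high wherever oxygen was low, ID2 and CCND1 are low wherever PP242 was present, CXCL8 is lowest in H, EGLN3 is highest in H, and TXNIP, PPP1R15A and SLC2A3 are highest in HPP.

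In polysome-bound mRNA, which has N and HPP libraries of its own from the same treatments, HPP changed 2910 of the 13124 genes (22.2%), 1342 higher (10.2%) and 1568 lower (11.9%). Of the 975 genes higher in total mRNA 82.3% were also higher in polysomal mRNA, which was 59.8% of those called there, and of the 981 lower genes 79.4% were also lower, 49.7% of those called there, with 0 called in the opposite direction by edgeR. Leaving out 1 of the 4 polysomal libraries brought the count to between 1007 (without HPP replicate 2) and 2220 (without HPP replicate 1). CA9 had a log2FC of 6.17 in polysomal mRNA, TXNIP 5.24, ID3 -4.88 and RRS1 -4.11, against 6.20, 4.46, -4.49 and -3.41 in total mRNA. Of the 82 cytosolic ribosomal protein genes 75 fell in polysomal mRNA, with a median of -2.80 against 0.35 in total mRNA, or -0.05 there without HPP replicate 2. Their mRNAs begin with a 5′ terminal oligopyrimidine tract, through which mTORC1 is known to control their translation. The respiratory chain and mitochondrial ribosomal protein lists also had lower medians in polysomal mRNA, at -1.0 and -1.06, against 0.05 and -0.18 in total mRNA. Without HPP replicate 2 those medians in total mRNA were -0.27 and -0.45, and without HPP replicate 1 they were 0.39 and 0.07. VIM, called higher in total mRNA, had a log2FC of -0.38 in polysomal mRNA. The difference between the fractions was not tested.

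In MDA-MB-231 total mRNA the same treatments called 1786 of 13510 tested genes (13.2%), 853 higher (6.31%) and 933 lower (6.91%). Of the 975 genes higher in MCF10A 844 were tested in MDA-MB-231, where 346 rose and 5 fell, the former 40.6% of those that rose there, and of the 981 lower genes 948 were tested, where 352 fell and 4 rose, the former 37.7% of those that fell there. The hypoxia targets rose in both lines, 28 of 35 in MCF10A and 26 of 35 in MDA-MB-231, with medians of 2.31 and 1.28, and the ribosome biogenesis genes fell in both, 21 and 24 of 38, with medians of -1.03 and -0.68. The test of the difference between the lines called 473 of 14298 genes (3.31%), with the effect of HPP more positive in MCF10A in 182 (1.27%) and more negative in 291 (2.04%), and the count ran from 160 (without MCF10A N replicate 2) to 407 (without MCF10A HPP replicate 1) when 1 of the 8 libraries was left out. Each line was deposited in a table of its own, so the line and any batch that goes with it cannot be told apart. CA9 rose in both lines, with a log2FC of 6.20 in MCF10A and 5.67 in MDA-MB-231, and the difference did not pass (edgeR adjusted p = 0.92). SMAD6 fell in MCF10A and had a log2FC of -0.68 in MDA-MB-231, and the difference passed (edgeR adjusted p = 1.68e-04). EIF4E fell by 2.09 on the log2 scale in MCF10A and by 0.58 in MDA-MB-231 (edgeR adjusted p of the difference = 0.00211). ANKRD1, a YAP target, fell in MCF10A (log2FC -1.36) and rose in MDA-MB-231 (1.0, edgeR adjusted p of the difference = 0.00258).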

How the data were processed

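Total mRNA and polysome-bound mRNA of MCF10A and MDA-MB-231 were sequenced as poly(A)-selected, unstranded libraries. Per the methods the authors aligned reads with STAR to GRCh38 and estimated gene levels with RSEM, while the submitters' processing notes name GRCh37. The authors deposited expected counts per gene, given as whole numbers, in 1 table for each cell line. Protein-coding genes were kept, those with low counts removed by filterByExpr, and TMM factors applied. The 16 MCF10A libraries in 8 groups were fitted together by edgeR's quasi-likelihood test (edgeR 4.0.16, R 4.3.3), with total and polysomal libraries of the same sample number taken as separate, and with p-values adjusted over all 13124 tested genes by the Benjamini-Hochberg method and a threshold of 0.05. The test had 8 residual degrees of freedom, and a permutation of 2 libraries against 2 cannot go below p = 0.333. The line difference came from a fit of all 32 libraries. The genes named first were the 14 largest called changes in each direction with libraries that did not overlap and a mean of at least 5 CPM over the 4 libraries. From each list its anchor members were named whatever their values, with up to 4 called members of smallest p. A gene named beyond these was chosen after its values were seen. Members and gene lists were chosen with earlier results of these data known. Gene positions and transcript lengths were read from GENCODE on GRCh38 and promoter windows from RefSeq GRCh38.p14. Alternatives were DESeq2 1.42.0, no filter, no TMM, a replicate block, fewer libraries, thinning to 18340916 counts, an offset for transcript length (smoothing span 0.3) and leaving out each library. The fit was also run on simulated data, and the outcome is not reported here. Some genes are not reported here.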

Additional observations from a re-analysis of the deposited data

Results flagged for a closer look

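The response of total mRNA to HPP differed between the lines by a test of the difference itself (edgeR, fit of all 32 libraries) in 473 genes, and 19 of the 28 genes named as largest changes in MCF10A were among them, 6 of the 14 that rose and 13 of the 14 that fell. These genes were chosen for large changes in MCF10A, which by itself widens the difference, and 6 of the 28, TREM1, HIST1H2BG, JAM2, PRSS8, DLX2 and SAMD11, were too low to be tested in MDA-MB-231 alone. In the MCF10A log2FC minus the MDA-MB-231 log2FC, HIST2H2AA4 stood at 6.26, JAM2 at 5.06, C10orf10 at 5.05, TXNIP at 2.94, SPAG4 at 2.06 and TMEM45A at 1.82. The size for HIST2H2AA4 is uncertain, since its MCF10A log2FC ran from 4.60 without HPP replicate 2 to 13.73 without N replicate 1. That for C10orf10 rests on 2 and 3 counts in N. Among the genes that fell, the same difference was -5.26 for DLX2, -5.05 for HOXC8, -4.18 for SAMD11, -3.76 for SMAD6, -3.56 for AP5B1, -3.47 for WNT7B and -2.71 for MFAP3L. For JAM2, DLX2 and SAMD11, which are among those too low in MDA-MB-231, the difference is mainly their MCF10A change and has no firm size. It was -2.06 for ID3, -2.01 for AEN, -1.99 for MARS2, -1.97 for AUNIP, -1.59 for RRS1 and -1.52 for CDC25A.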

How the results depend on the processing

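With 2 libraries a group, the number of calls depended on the fit. Every one of the 1956 genes kept its sign without TMM, with the length offset and with the replicate block. The called log2FC nearest to 0 were 0.67 and -0.67, and without TMM the median of all genes moved only to -0.26. Leaving out TMM could thus hardly turn a sign. Nor could the block, which is balanced over HPP and N. Each gene also kept its sign without each of the 4 libraries. That was fixed beforehand, since the HPP and N libraries did not overlap in any of these genes. Without TMM 2075 genes were called, 1536 of them shared. The length offset called 3491 (1746 higher, 1745 lower), 1844 shared. Same-numbered libraries deviated together (correlations of 0.283 to 0.778), but the labels give only a number, so the pairing is not established. With the replicate block 3484 genes were called (1526 higher, 1958 lower), 1956 shared, with 1153 against H, 1226 against NPP, 4785 in polysomal mRNA and 1059 for the line difference. The block and the length offset together, an alternative chosen after seeing the data, called 5003 genes (2398 higher, 2605 lower) and 44.1% of the tested list members, against 24.8% in the fit reported. DESeq2 called 1465 genes higher, 1045 against H, 1097 against NPP, 6 for the interaction and 747 for the line difference. A fit of only the 4 libraries called 1212 genes, 557 lower, and one of the 8 total mRNA libraries 988, 529 higher and 459 lower, with 16.3% of the list members, or 1485 lower with the replicate block. Leaving out 1 library gave 572 to 1280 calls, 262 to 815 higher and 284 to 465 lower, 25 to 28 of the 28 named genes and 11.1% to 19.7% of the list members, 71 to 136 against H, 126 to 1062 against NPP, 0 to 0 for the interaction, 1007 to 2220 in polysomal mRNA and 160 to 407 for the line difference. The cause of these shifts was not tested, though each such fit has fewer libraries. The other alternatives stayed within 1.5 times, with 1630 calls without the filter, 1586 after thinning and 1713 at an absolute log2FC of at least 1. Of the named genes 466 values kept direction and call and 10 lost the call, none reversing: HIST2H2AA4 in 4 settings, IL24 in 3 and HIST1H2BG in 3. Of the list values 1609 held, with a count within 1.5 times or a median that shifted little, and 230 moved further, up or down. Counts that rose from 0 made up 68 values and counts that fell to 0 made up 82. A larger fall that stopped short of 0 is among the 230.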

Other observations

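BMP2, a ligand of the BMP family, rose in HPP (log2FC 2.71) while BMP4, a ligand of the same family, fell (-1.62), as did SMAD1, which carries the BMP signal to the nucleus (-3.07). The call of BMP2 was lost without N replicate 1. SMAD1 stood at 11.4 and 9.5 CPM in N and 1.14 and 1.34 CPM in HPP. DDIT3, a stress-induced factor downstream of ATF4, rose from 8.41 and 7.08 CPM to 58.4 and 99.98 CPM, and ATF3, another stress-induced factor, from 0.836 and 0.611 CPM to 2.04 and 12.5 CPM, with HPP replicate 2 far the higher. Among genes with a few reads at most in N, CSF2, the growth factor GM-CSF, stood at 0.680 and 1.24 CPM in HPP and IL1B, interleukin-1 beta, at 0.402 and 1.04 CPM. These genes were chosen after their values were seen.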
